A study of Mus musculus with 8 samples.

Results

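The genes described here encode Golf, the stimulatory G protein of striatal neurons, the chaperone of its alpha subunit, and the adenylate cyclases that such G proteins act on. They are Gnal, Gng7, Ric8b, Gnas, Adcy5, Adcy1, Adcy2, Adcy3, Adcy8 and Adcy9. All non-control probes whose gene name in the scanner files is 1 of these 10 genes were taken, which gave 18 of the 55681 non-control probes on the array. Gnas had 4 probes, Adcy5 and Gng7 had 3 each, Gnal had 2, and each of the other 6 genes had 1. Of the 18 probes, 17 entered the test, as did 41378 probes in all, by having a signal called well above background on 4 or more of the 8 arrays. The probe of Adcy8 did not.

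The samples were medium spiny neurons (MSNs), the inhibitory output neurons of the striatum, from 4-week-old males. Cells were sorted as positive for the fluorescent protein Venus, which reports Scn4b, and negative for the dead-cell dye propidium iodide. Of the arrays, 4 held MSNs of R6/2;Scn4b-Venus mice and 4 held MSNs of WT;Scn4b-Venus mice. The R6/2 transgene, a Huntington's disease model, holds exon 1 of human HTT with an expanded CAG repeat under the human HTT promoter, and so is not confined to MSNs. Both groups carry the Venus reporter. Each array took 1 colour (Cy3) of labelled RNA made from nanogram amounts of total RNA. The labels do not say whether each array is a separate animal, so the p-values measure the spread between these samples, which may in part be technical.

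In most cells a stimulatory G protein containing the alpha subunit Gs (Gnas) carries the signal of activating receptors to adenylate cyclase, which makes cyclic AMP (cAMP). In striatal MSNs this role falls mainly to Golf, named for its discovery in olfactory neurons, whose alpha subunit is the product of Gnal and whose gamma subunit is the product of Gng7. Golf couples the stimulatory dopamine (Drd1) and adenosine (Adora2a) receptors to adenylate cyclase 5 (Adcy5), the main cyclase of the striatum, and Ric8b assists the folding and membrane delivery of the Golf and Gs alpha subunits.

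Adcy5 and Gng7 were read by several probes along the transcript, and the size of the difference varied among them, so the places they read are shown first. Each sequence is the last 30 of the 60 bases of a probe, 5′ to 3′ in the sense of the mRNA, on mm9, the build in the file headers. Capitals mark AATAAA or ATTAAA, the letters of the common polyadenylation signals, searched for in the last 30 bases on the strand of the probe alone.
Adcy5 A_66_P120414 (chr16:35304071-35304100, plus strand): actcgagttgaaccttgagttttctgacaa
Adcy5 A_55_P2047305 (chr16:35304428-35304457, plus strand): tctgagcaaaagaaaatatttATTAAAtaa
Adcy5 A_55_P2106645 (chr16:35304581-35304610, plus strand): attttttattttgtattattgaaaccttgg
Gng7 A_55_P2064457 (chr10:80414345-80414374, minus strand): attctctagttctctctctttctctctctc
Gng7 A_55_P1988018 (chr10:80411369-80411398, minus strand): ctccatAATAAAagcctcgattttcctttt
The middle Adcy5 probe held ATTAAA with 3 bases after it, and the last Gng7 probe held AATAAA with 18 bases after it. Over all 55681 non-control probes, 8.16% held AATAAA and 2.74% held ATTAAA in their last 30 bases. A match is a description of letters and not a site of cleavage.

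Probes well above background made up 74.0% to 78.8% of all probes on R6/2 arrays and 50.1% to 76.2% on WT arrays, with the lowest share on WT replicate 1. The group means were 76.0% ± 2.02 in R6/2 and 66.6% ± 11.5 in WT (SD, n = 4 each, exact permutation p = 0.114, two-sided). Correlations between arrays, across probes, ran between 0.905 and 0.953. All 14 MSN markers on the array were well above background on all 8 arrays, and their summed level, in units of the array's 75th percentile, was 715 to 814 on R6/2 arrays and 1048 to 1276 on WT arrays. In such bulk samples fewer cells of a type and less RNA per cell cannot be told apart. The summed level of 8 oligodendrocyte markers was 67.6 on WT replicate 2, against 12.5 to 20.7 on R6/2 arrays and 12.7 to 27.0 on the other WT arrays, so that results for which this array matters are given with and without it. Sums were 1.97 to 4.54 in R6/2 and 2.65 to 4.85 in WT for astrocyte markers (7 of 8 tested), and 26.0 to 32.2 in R6/2 and 20.4 to 32.4 in WT for microglial markers (6 of 8 tested). They were 2.94 to 3.91 in R6/2 and 3.37 to 4.89 in WT for endothelial and mural markers (5 of 8 tested). Interneuron markers (6 of 8 tested) summed to 2.91 to 12.8 in R6/2 and 2.64 to 5.73 in WT, with Calb2 well above background on no array. The sum of 12.8 was that of R6/2 replicate 2, against 2.91 to 3.76 on the other R6/2 arrays. Markers of cortical glutamatergic neurons (3 of 8 tested) summed to 0.847 to 1.79 in R6/2 and 0.958 to 1.13 in WT, and Slc17a6 and Neurod6 were well above background on no array. R6/2 replicate 4 was alone on a second slide, with its own dates of scan and of feature extraction. R6/2 replicate 2, on the first slide, also had its own date of extraction, while the remaining arrays shared the same date.

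Across the Golf and cyclase genes, most probes had lower levels in R6/2 MSNs, with the largest difference at Adcy5, and no probe passed the test over the whole array. Levels are log2 of the processed intensity, with 0 at the array's 75th percentile over non-control probes, and differences are R6/2 minus WT on this log2 scale. Of the 17 tested probes, 14 had a negative and 3 a positive difference, and the median was -0.26, against +0.05 over all 41378 tested probes, of which 44.5% were negative. By limma with Benjamini-Hochberg adjustment over all tested probes, 0 of the 17 passed an adjusted p of 0.05, against 0.00242% of all tested probes (1 probe), and the smallest adjusted p among them was 0.552. At an unadjusted p under 0.05, 4 of the 17 were lower and 0 higher in R6/2, against 3.05% of all tested probes lower and 3.97% higher. These were 2 probes of Adcy5, 1 of Gnal and 1 of Gng7, and probes of 1 gene read the same RNA. All 4 R6/2 arrays lay below all 4 WT arrays at 4 of the 17 probes (2 of Adcy5, 1 of Gnal and 1 of Ric8b), against 2.26% of all tested probes. No probe had all R6/2 arrays above all WT arrays. The methods' t-test (the unpaired test named in the deposited table), run on the same values, also called 0 of the 17 after adjustment, with 6 lower at an unadjusted p under 0.05, against 3.27% of all tested probes by that test. Without WT replicate 2, 15 of the 17 were negative. In that fit 4 were lower at an unadjusted p under 0.05 (2.69% of all tested probes) and 6 had all R6/2 arrays below all WT arrays (3.59% of all tested probes). Without R6/2 replicate 4, 14 were negative, 2 were lower at an unadjusted p under 0.05 (2.56% of all tested probes) and 4 had all R6/2 arrays below all WT arrays (3.38% of all tested probes).

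**Figure D1:**
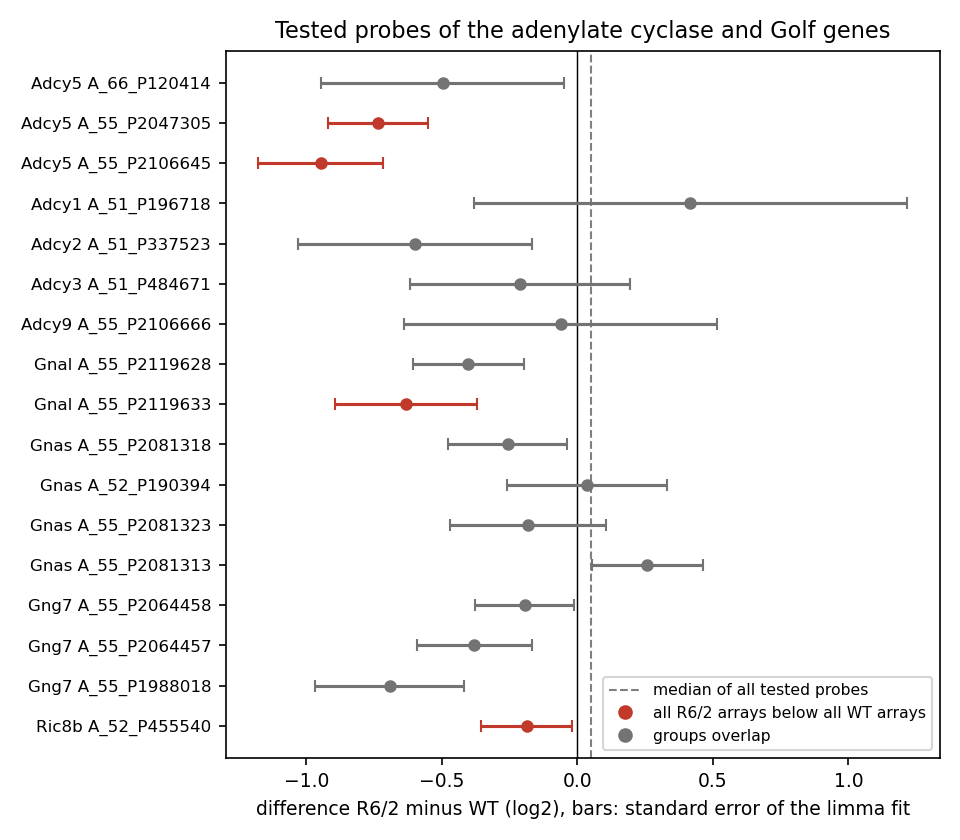
Difference R6/2 minus WT (log2, x axis) for each of the 17 tested probes, listed by gene down the page, with the standard error of the limma fit as bars. Red points mark the 4 probes with all R6/2 arrays below all WT arrays, grey points those whose groups overlap, and the dashed line is the median of all tested probes (+0.05). The Adcy5 probe A_55_P2106645 lies farthest to the left (-0.95), and 3 points lie to the right of 0.

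Gnal encodes the alpha subunit of Golf, which binds GTP and activates the cyclase. Its 2 probes lie on chromosome 18, plus strand, at 67383732 to 67383791 (A_55_P2119628) and 67386343 to 67386402 (A_55_P2119633). At the first, which had the higher mean level and stands for the gene below, the levels were 4.89, 5.15, 4.98 and 4.68 in R6/2 replicates 1 to 4, against 5.51, 5.0, 5.45 and 5.34 in WT replicates 1 to 4. The groups overlapped because WT replicate 2 lay below R6/2 replicate 2, while the other 3 WT arrays lay above every R6/2 array. The difference was -0.40 (SE 0.21, limma unadjusted p = 0.084, adjusted p = 0.746). Without WT replicate 2 it was -0.51 (unadjusted p = 0.035).

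At the second Gnal probe, 3' of the first, the levels were 3.94, 3.64, 3.75 and 3.46 in R6/2, against 3.95, 4.98, 4.15 and 4.25 in WT. Here WT replicate 2 was the highest array, and the groups were separate by the narrow gap between R6/2 replicate 1 and WT replicate 1. The difference was -0.63 (SE 0.26, limma unadjusted p = 0.041, adjusted p = 0.702), and without WT replicate 2 it was -0.42 (unadjusted p = 0.080). The same array was thus the lowest of the WT group at one Gnal probe and the highest at the other. Both Gnal differences were negative under every alternative scaling and background correction and with each array left out. They ran between -0.51 and -0.29 at the first probe and between -0.76 and -0.42 at the second.

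Gng7 encodes the gamma subunit that pairs with the Golf alpha subunit in the striatum. Its probes lie on chromosome 10, minus strand, and the 5'-most (A_55_P2064458, 80460755 to 80460814) is assigned to another transcript than the other 2. The levels at that probe were 3.78, 3.74, 3.57 and 3.52 in R6/2, against 3.76, 4.07, 3.71 and 3.83 in WT. The groups overlapped, and the difference was -0.19 (SE 0.18, limma adjusted p = 0.857).

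The next Gng7 probe (A_55_P2064457, 80414345 to 80414404) had the highest mean level of the 3. Its levels were 5.22, 5.03, 5.06 and 4.63 in R6/2, against 5.31, 5.66, 5.29 and 5.20 in WT. Only R6/2 replicate 1 reached into the WT range, and R6/2 replicate 4, the array of the second slide, was the lowest. The difference was -0.38 (SE 0.21, limma unadjusted p = 0.108, adjusted p = 0.760), and without WT replicate 2 it was -0.28 (unadjusted p = 0.223). At the 3'-most probe (A_55_P1988018, 80411369 to 80411428) the levels were 1.81, 1.80, 2.18 and 1.5 in R6/2, against 2.63, 3.1, 2.12 and 2.21 in WT. R6/2 replicate 3 lay above WT replicate 3 and the other R6/2 arrays lay below all WT arrays. The difference was -0.69 (SE 0.28, limma unadjusted p = 0.035, adjusted p = 0.691), and without WT replicate 2 it was -0.50 (unadjusted p = 0.079). All 3 Gng7 probes had a negative difference under every alternative scaling and background correction and with each array left out.

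**Figure D2:**
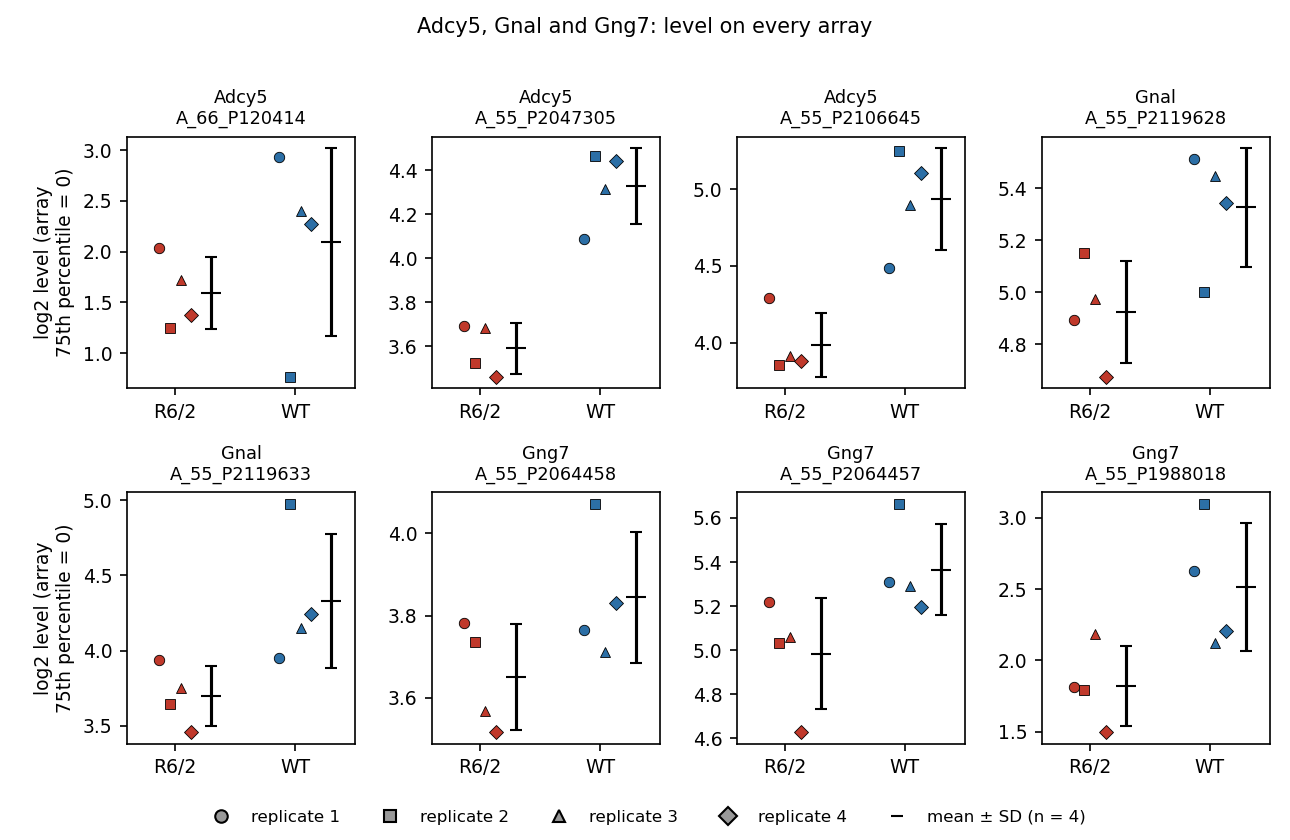
Level on every array (y axis, log2, 0 = array 75th percentile) at the 3 Adcy5, 2 Gnal and 3 Gng7 probes, 1 panel per probe, with R6/2 arrays in red on the left and WT arrays in blue on the right of each panel. Marker shapes give the replicate and black bars the mean ± SD (n = 4). The groups are separate at A_55_P2047305, A_55_P2106645 and A_55_P2119633, and WT replicate 2 (square) is the lowest WT array in 2 panels and the highest in the other 6.

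Ric8b encodes a chaperone and exchange factor for the Golf and Gs alpha subunits. Its probe A_52_P455540 (chromosome 10, plus strand, 84478965 to 84479024) had levels of 3.73, 3.66, 3.67 and 3.61 in R6/2, against 3.81, 3.77, 3.85 and 3.98 in WT. All R6/2 arrays lay below all WT arrays, by a small distance. The means were 3.67 ± 0.05 in R6/2 and 3.85 ± 0.09 in WT (SD, n = 4 each), a difference of -0.19 (SE 0.17) or 87.8% of the WT level. The limma test, which draws the variance of each probe towards that of all probes, gave an unadjusted p = 0.294 and an adjusted p = 0.846. The methods' t-test on the same values gave an unadjusted p = 0.0099 and an adjusted p = 0.641.

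Gnas encodes the ubiquitous stimulatory alpha subunit Gs, from a locus with several alternative first exons. Its 4 probes lie on chromosome 2, plus strand, are assigned to 4 different transcripts, and gave differences of both signs. The 3'-most probe (A_55_P2081313, 174171933 to 174171992) had the highest mean level, with 3.87, 3.78, 3.35 and 3.71 in R6/2, against 3.16, 3.40, 3.58 and 3.53 in WT. Here 3 R6/2 arrays lay above all WT arrays and R6/2 replicate 3 lay within the WT range. The difference was +0.26 (SE 0.20, limma unadjusted p = 0.239, adjusted p = 0.824).

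The 5'-most Gnas probe (A_55_P2081318) had levels of -3.12, -2.77, -2.74 and -3.27 in R6/2, against -3.06, -2.63, -2.55 and -2.64 in WT, and was well above background on 4 R6/2 and 3 WT arrays. The groups overlapped and the difference was -0.26 (SE 0.22, limma adjusted p = 0.836). The next probe (A_52_P190394), also at 4 and 3 arrays, differed by +0.03 (SE 0.30, limma adjusted p = 0.987). Its sign turned in 6 of 17 fits, for example at -0.19 without WT replicate 1. Those 6 include the first slide only and the fit without R6/2 replicate 4, which hold the same arrays. The third (A_55_P2081323) differed by -0.18 (SE 0.29, limma adjusted p = 0.921). In fits on single probes with another scaling, another background correction or an array left out, only the 3'-most Gnas probe stayed positive. Its difference was between +0.16 and +0.37.

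Adcy5 encodes the cyclase that is activated by Golf and inhibited by Gi, and it had the largest differences of the 10 genes. Its 3 probes lie on chromosome 16, plus strand, within one stretch near the 3' end of the transcript named in the files. At the 3'-most probe (A_55_P2106645, 35304551 to 35304610), which had the highest mean level, the levels were 4.29, 3.85, 3.92 and 3.88 in R6/2, against 4.48, 5.25, 4.90 and 5.10 in WT. All R6/2 arrays lay below all WT arrays, and R6/2 replicate 1 and WT replicate 1 were the nearest to each other. The means were 3.99 ± 0.21 in R6/2 and 4.93 ± 0.33 in WT (SD, n = 4 each). The difference was -0.95 (SE 0.23, limma unadjusted p = 0.0030, adjusted p = 0.552), so that the R6/2 level was 51.9% of the WT level.

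At the middle Adcy5 probe (A_55_P2047305, 35304398 to 35304457) the levels were 3.69, 3.52, 3.68 and 3.46 in R6/2, against 4.09, 4.47, 4.32 and 4.44 in WT. The groups were separate here too, and each varied less within itself than at the 3'-most probe. The means were 3.59 ± 0.12 in R6/2 and 4.33 ± 0.17 in WT (SD, n = 4 each). The difference was -0.74 (SE 0.18, limma unadjusted p = 0.0035, adjusted p = 0.552), or 60.0% of the WT level. At the 5'-most probe (A_66_P120414, 35304041 to 35304100) the levels were 2.04, 1.25, 1.72 and 1.37 in R6/2, against 2.93, 0.77, 2.39 and 2.27 in WT. Here 3 WT arrays lay above all R6/2 arrays, while WT replicate 2 lay below them. The difference was -0.50 (SE 0.45, limma unadjusted p = 0.298, adjusted p = 0.847).

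Without WT replicate 2 the Adcy5 differences were -0.94, -0.69 and -0.84, in 5' to 3' order (limma unadjusted p = 0.0115, 0.0083 and 0.0081, the smallest adjusted p = 0.582). Without WT replicate 1 the 5'-most probe was at -0.22 (unadjusted p = 0.633), so that its size rests on single WT arrays. The 3'-most probe was negative under every alternative scaling and background correction and with each array left out, between -1.10 and -0.84. Fits that changed only the variance, the test or the set of probes left its difference at -0.95, so its sign could not turn in them. Over all 19 fits, by limma or the methods' t-test, its unadjusted p was between 0.00038 and 0.0180 and its adjusted p between 0.231 and 0.816. Within the first slide its difference was -0.91 (unadjusted p = 0.0083, adjusted p = 0.757). Beside these values stands the shift of the MSN markers, of which 14 of 14 were negative, the median being -0.54. The part of that shift in the Adcy5, Gnal and Gng7 differences was not tested.

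The probes of the other cyclases were well above background on fewer arrays, or varied more within each group, than the 3'-most Adcy5 probe. Adcy3, a cyclase best known from olfactory neurons and neuronal cilia, had levels of 0.39, -0.11, 0.32 and -0.66 in R6/2, against -0.28, 0.14, -0.33 and 1.26 in WT (A_51_P484671, chromosome 12, plus strand, 4211535 to 4211594). The groups overlapped widely and WT replicate 4 stood above the rest. The difference was -0.21 (SE 0.41, limma adjusted p = 0.933), and it was +0.14 without WT replicate 4. Adcy9, which differs from the other membrane cyclases in its weak response to forskolin, had levels of 0.04, 1.13, 1.26 and 1.55 in R6/2, against 1.82, -0.55, 1.06 and 1.90 in WT (A_55_P2106666, chromosome 16, minus strand, 4287678 to 4287737). Its lowest array in each group, R6/2 replicate 1 and WT replicate 2, lay well below the others. The difference was -0.06 (SE 0.58, limma adjusted p = 0.989), and its sign turned when R6/2 replicate 1 (+0.26), WT replicate 1 (+0.19) or WT replicate 4 (+0.22) was left out.

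Adcy1, a cyclase stimulated by calcium and calmodulin, was well above background on 4 R6/2 and 2 WT arrays (A_51_P196718, chromosome 11, plus strand, 7077699 to 7077755). Its levels were -2.10, -2.30, -1.95 and -4.13 in R6/2, against -3.55, -4.87, -1.19 and -2.53 in WT. One array stood low in each group, R6/2 replicate 4 and WT replicate 2. The difference was +0.42 (SE 0.80, limma adjusted p = 0.934), and it was -0.20 without WT replicate 2. Adcy2, a cyclase that G protein beta-gamma subunits can stimulate, was well above background on 3 R6/2 and 2 WT arrays (A_51_P337523, chromosome 13, minus strand, 68759669 to 68759728). Its levels were -3.60, -4.10, -4.24 and -5.42 in R6/2, against -3.24, -3.56, -4.53 and -3.62 in WT. The groups overlapped and the difference was -0.60 (SE 0.43, limma adjusted p = 0.805). It was -0.24 without R6/2 replicate 4, the lowest array. Adcy8, the other cyclase stimulated by calcium and calmodulin, was well above background on none of the 8 arrays (A_51_P303061, chromosome 15, minus strand, 64530939 to 64530998), so no difference is given. A probe's level cannot be set against another probe's, so these levels do not rank the cyclases by amount.

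**Figure D3:**
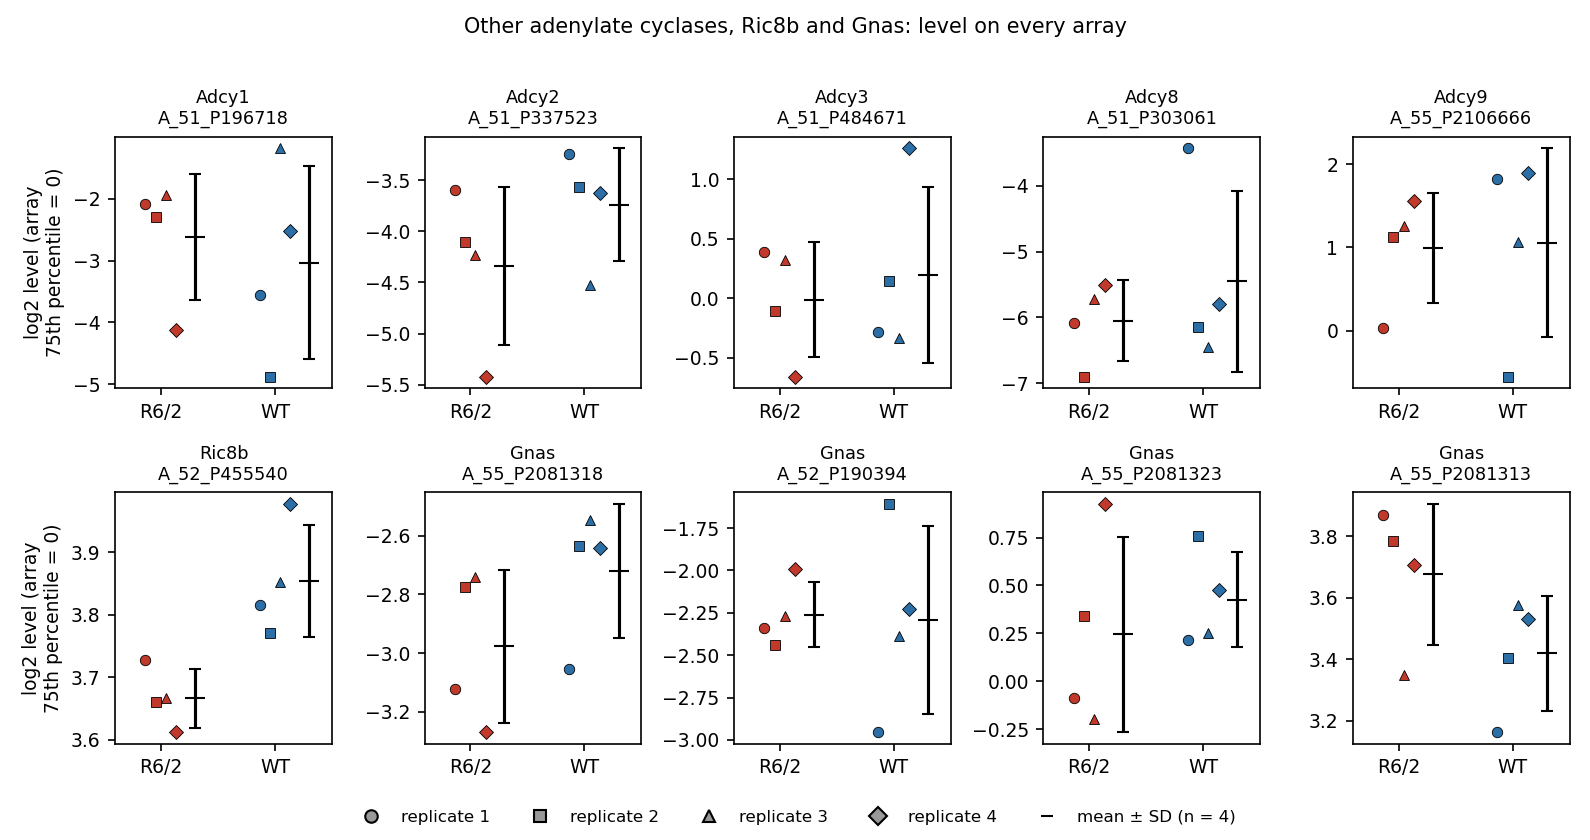
Level on every array (y axis, log2, 0 = array 75th percentile) at the probes of the other cyclases, Ric8b and Gnas, with R6/2 arrays in red on the left and WT arrays in blue on the right of each panel. Marker shapes give the replicate and black bars the mean ± SD (n = 4). Only at Ric8b are the groups separate, and the Adcy8 values were well above background on no array.

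The Adcy5 and Gng7 probes shown at the start, and the Gnal pair, were compared within each array, as the 3'-most minus the 5'-most probe of the same transcript. For Adcy5, 510 bases apart, this gap in level was 2.26, 2.60, 2.20 and 2.51 in R6/2, against 1.55, 4.48, 2.50 and 2.83 in WT. WT replicate 2 had the widest gap and WT replicate 1 the narrowest, with all R6/2 arrays between them. The gap differed between groups by -0.45 (SE 0.56, limma unadjusted p = 0.446, adjusted p = 0.956 over 3704 transcripts with 2 or more tested probes), and by +0.10 without WT replicate 2. For Gng7, 2976 bases apart, the group difference in the gap was -0.31 (SE 0.25, adjusted p = 0.896), and -0.22 without WT replicate 2. For Gnal, 2611 bases apart, it was -0.23 (SE 0.36, adjusted p = 0.963), and +0.09 without that array. Over the 3704 transcripts the median was -0.06 and 55.3% were negative, with 0 called by limma and 242 at an unadjusted p under 0.05. The steeper differences towards the 3' end of these genes thus did not hold up against the spread between arrays.

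**Figure D4:**
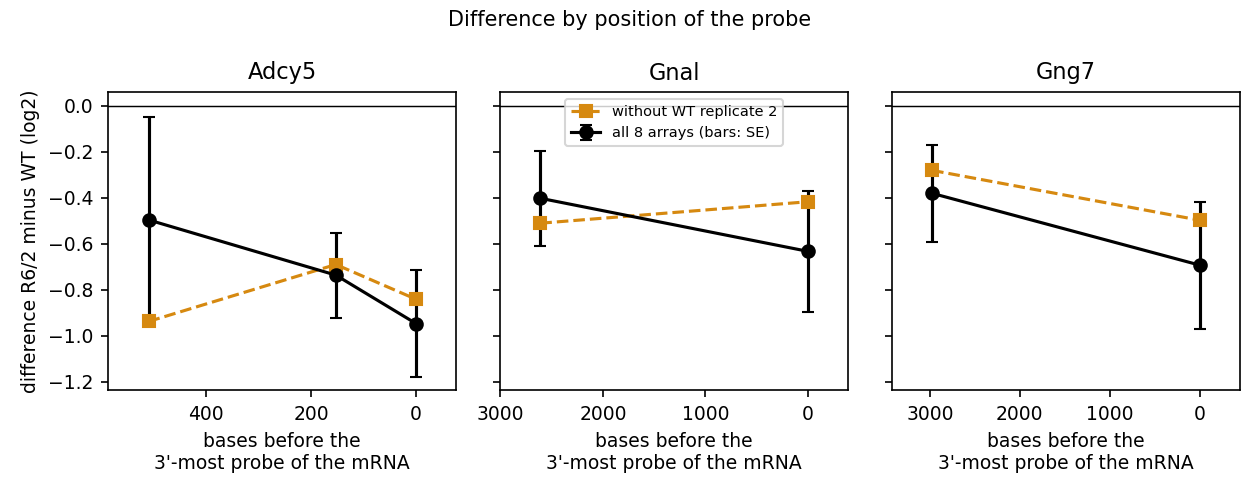
Difference R6/2 minus WT (log2, y axis) against the distance in bases before the 3'-most probe (x axis) for probes of the same transcript of Adcy5, Gnal and Gng7. Black points are the fit on all 8 arrays with its SE, and orange squares the fit without WT replicate 2. With all arrays each line goes down towards the 3' end, while without WT replicate 2 the first Adcy5 probe is at -0.94 and the 2 Gnal probes are at -0.51 and -0.42.

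The genes around Golf and the cyclases were described by 11 lists of other cAMP signalling genes, each gene represented by whichever of its tested probes had the highest mean level. Of 114 tested genes, 77 had a negative and 37 a positive difference, with a median of -0.18. By limma 0 passed the adjusted threshold, with 22 lower and 2 higher at an unadjusted p under 0.05, against 3.05% of all tested probes lower and 3.97% higher. At 20 genes all R6/2 arrays lay below all WT arrays, against 2.26% of all tested probes. Here and for the lists below, the shares cover all tested probes, dim ones included, while each gene is represented by its brightest tested probe. The shares over such probes alone were not counted, so the figures are not like for like. Among the cyclases outside the 10 genes, 2 of 4 were tested. Adcy6, the closest relative of Adcy5, had levels of -1.34, -1.22, -1.23 and -1.89 in R6/2, against -1.14, -0.95, -1.06 and -0.69 in WT. All R6/2 arrays lay below all WT arrays, and the difference was -0.46 (SE 0.23, limma unadjusted p = 0.073, adjusted p = 0.736). Adcy10, the soluble cyclase, differed by +0.45 (adjusted p = 0.828).

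Of 9 tested gamma subunits other than Gng7, 3 had a negative and 6 a positive difference, while 44.5% of all tested probes were negative. Without WT replicate 2, or without R6/2 replicate 4, 1 of the 9 was negative. With all arrays their median was +0.56, against +0.05 over all tested probes. At a limma unadjusted p under 0.05, 2 were higher and 0 lower in R6/2, against 3.97% of all tested probes higher and 3.05% lower. Gng3, a gamma subunit of brain, had levels of 4.55, 4.34, 4.83 and 4.77 in R6/2, against 4.04, 4.13, 3.72 and 4.23 in WT. All R6/2 arrays lay above all WT arrays at this probe, and the difference was +0.59 (SE 0.21, limma unadjusted p = 0.021, adjusted p = 0.663). Gng13, the gamma subunit of taste transduction, differed by +0.85 (unadjusted p = 0.025, adjusted p = 0.673) and Gng10 by +0.56 (adjusted p = 0.785), both with overlapping groups. WT replicate 2 was the lowest array at both, at -0.25 for Gng13 and -1.01 for Gng10. The median of the gamma list depended on the background correction, at +0.14 with normexp.

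Of 5 beta subunits, 2 were negative and 3 positive, with a median of +0.06. Gnb5, the beta subunit that binds regulators of G protein signalling, differed by -0.44, Gnb2 by -0.33 and Gnb3 by +0.51, with adjusted p-values between 0.782 and 0.802. Of 5 alpha subunits that inhibit or do not activate cyclases, 2 were negative and 3 positive, with a median of +0.03, led by Gnai2 (-0.77), Gnao1 (-0.44, with its other probe at -1.11) and Gnai3 (+0.77). At Gnai3 WT replicate 2 had a level of -2.05, against 0.18, -0.06 and 0.78 on the other WT arrays. Of 6 alpha subunits of the Gq and G12 families, 3 were negative and 3 positive, with a median of -0.02, and Gna12 (-0.38), Gna15 (-0.19) and Gna14 (+0.35) had the smallest p-values. The medians of the beta, inhibitory alpha and Gq and G12 lists changed sign under other scalings or without WT replicate 2. Neither these 3 lists nor the cyclases outside the 10 genes held a gene at an unadjusted p under 0.05.

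Receptors had mostly negative differences, both those that raise and those that lower cAMP. Of 15 tested receptors that raise cAMP, 11 were negative and 4 positive, with a median of -0.27 and 3 lower at an unadjusted p under 0.05, against 3.05% of all tested probes. Drd1a, the older symbol of the dopamine D1 receptor that signals through Golf, had levels of 1.97, 2.03, 2.48 and 2.22 in R6/2, against 3.35, 2.32, 2.88 and 3.18 in WT. WT replicate 2 alone lay within the R6/2 range, and the difference was -0.76 (SE 0.27, limma unadjusted p = 0.021, adjusted p = 0.663). The serotonin receptors Htr4 (-1.03, with its other probe at +0.18) and Htr6 (-1.18) had adjusted p-values of 0.680 and 0.708. Of 21 tested receptors that lower cAMP, 18 were negative and 3 positive, with a median of -0.33 and 6 lower at an unadjusted p under 0.05, against 3.05% of all tested probes.

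The cannabinoid receptor gene Cnr1 had levels of 1.93, 1.62, 2.22 and 1.76 in R6/2, against 2.95, 2.88, 3.27 and 3.17 in WT. The groups were far apart, with a difference of -1.18 (SE 0.21, limma unadjusted p = 0.00039, adjusted p = 0.395). The adenosine A1 receptor gene Adora1 (-0.84) and the kappa opioid receptor gene Oprk1 (-1.20) also had separate groups, each with an adjusted p = 0.485.

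Of 10 tested effectors (protein kinase A subunits, cAMP-gated channels and exchange factors), 8 were negative and 2 positive, with a median of -0.10 and none at an unadjusted p under 0.05. The protein kinase A subunits Prkar2b (-0.32) and Prkaca (+0.65) and the exchange factor Rapgef2 (-0.33) had adjusted p-values between 0.770 and 0.824. At Prkaca WT replicate 2 was the lowest array, at 0.35. Of 7 protein kinase A targets, 4 were negative and 3 positive, with a median of -0.15. Ppp1r1b, which encodes DARPP-32, had levels of 7.20, 6.78, 7.15 and 6.90 in R6/2, against 7.6, 7.35, 7.5 and 7.74 in WT. The groups were separate and the difference was -0.54 (SE 0.20, limma unadjusted p = 0.023, adjusted p = 0.664). Arpp21 differed by -0.90, with its other probes reaching -0.15, and Atf1 by -0.15.

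Of 15 phosphodiesterase genes, which degrade cAMP, 10 were negative and 5 positive, with a median of -0.38 and 5 lower at an unadjusted p under 0.05, against 3.05% of all tested probes. Pde10a, the main phosphodiesterase of MSNs, had levels of 4.23, 4.18, 4.51 and 3.95 in R6/2, against 5.21, 4.56, 5.39 and 5.47 in WT. WT replicate 2 lay nearest to the R6/2 arrays without reaching them, and the difference was -0.94 (SE 0.26, limma unadjusted p = 0.0057, adjusted p = 0.568). The calmodulin-dependent Pde1b differed by -0.74 with separate groups, and Pde1c by -1.47 with overlapping groups and another probe at +0.66. Of 19 regulators of G proteins and cyclases, 15 were negative and 4 positive, with a median of -0.23 and 6 lower at an unadjusted p under 0.05, against 3.05% of all tested probes. Rgs10 (-0.81) and Rgs4 (-0.70), which speed GTP hydrolysis by inhibitory alpha subunits, and Gpsm2 (-1.08) had separate groups and adjusted p-values between 0.560 and 0.634.

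**Figure D5:**
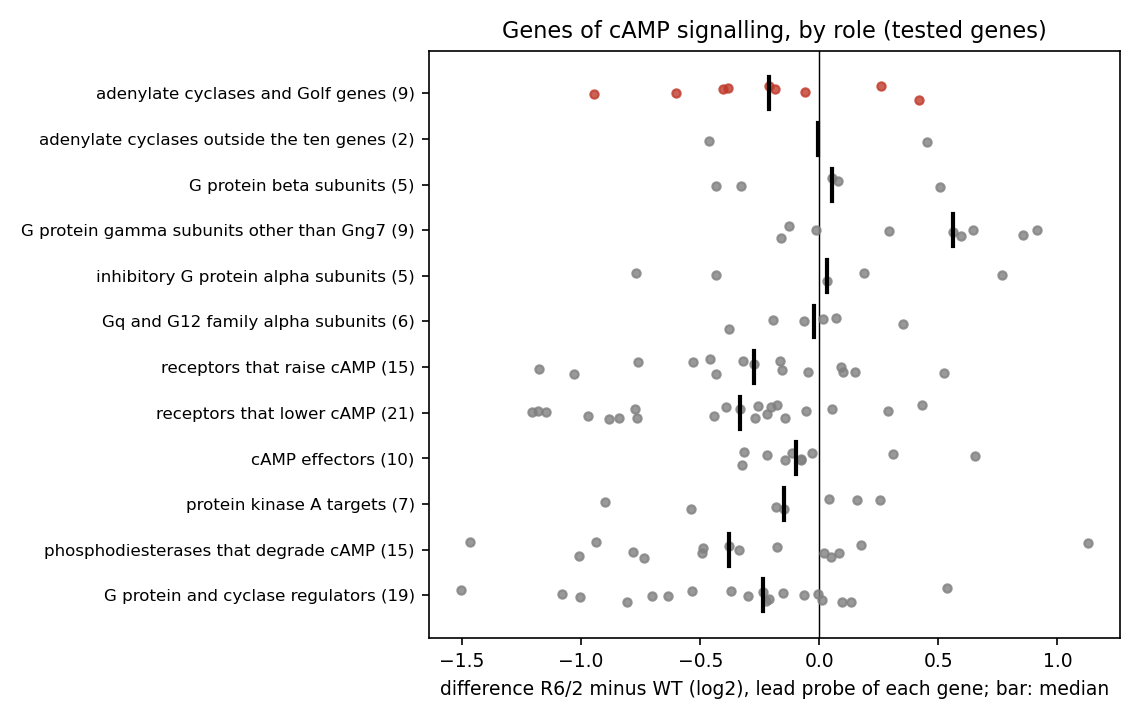
Difference R6/2 minus WT (log2, x axis) of each tested gene, by its probe with the highest mean level, for the 9 tested cyclase and Golf genes (red, top) and the 11 lists of other cAMP signalling genes (grey), with the number of tested genes in brackets. Vertical bars are medians, from -0.38 in the phosphodiesterases to +0.56 in the gamma subunits other than Gng7, and -0.21 in the cyclase and Golf genes. No gene shown passed the adjusted threshold.

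Across the 8 arrays, the genes whose level followed Adcy5 most closely by Pearson's r, among 14358 genes compared, were Phyhip (0.975), Rarb (0.966), Rasgef1a (0.965), Mbd6 (0.965) and Terf2ip (0.960). Those for Gng7 were Lcn6 (0.983), Rbfox1 (0.977), Htr4 (0.971), Nphs1 (0.970) and Ylpm1 (0.970). These r are descriptions over 8 arrays of 2 genotypes, so the difference between genotypes enters them, and they share array and scaling. Rarb, which encodes a retinoic acid receptor, differed by -0.67 and Rbfox1, which encodes a splicing factor, by -0.52 (limma adjusted p = 0.634 and 0.704).

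In the authors' deposited table the 18 probes were 15 down and 3 up in R6/2. None of them had a corrected p under 0.05 in the authors' deposited table, and 6 had a p under 0.05 before correction. The matching shares over all probes of that table were not counted, so whether these counts are unusual there was not tested. The lowest corrected p in the authors' deposited table was 0.424, at the middle Adcy5 probe (A_55_P2047305, 1.67-fold down), and the 3'-most Adcy5 probe (A_55_P2106645) was 1.93-fold down there.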

How the data were processed

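RNA of sorted MSNs was measured on 1-colour Agilent arrays, 4 R6/2;Scn4b-Venus and 4 WT;Scn4b-Venus. Per the file headers, the scanner files hold an intensity for each spot, as Agilent Feature Extraction 10.7.3.1 wrote it after spatial and multiplicative detrending and surrogates for dim spots, and coordinates on mm9. The deposited whole-series table holds the authors' log2 values (relative to each array's 75th percentile, and correlating with the levels used here at r = 1.00 on each array), the p-value of their unpaired t-test before and after correction, and an unsigned fold change with its direction. The authors' log2 values served as an alternative only.

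Levels are log2 of the processed intensity. Outlier spots were removed, replicate spots were averaged per probe, and the array's 75th percentile over non-control probes was subtracted. In R6/2 replicate 3 a garbled line took 2 spots, so that 62974 in place of 62976 were read. Probes well above background on at least 4 of 8 arrays were tested with limma 3.58.1 (lmFit and eBayes, two-sided, R 4.3.3) on all arrays with genotype as the only term, with Benjamini-Hochberg adjustment over 41378 probes and a threshold of 0.05. The procedure was run on simulated data drawn as independent normal values, without any effect of slide or array. The number of arrays limits the precision. Single quality values were compared by exact permutation over 70 assignments, with a smallest possible p of 0.0286.

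The 10 genes and the gene lists were chosen with earlier results of these data known, so no test is given for any list. Named genes are the 10, the 3 genes with the smallest p of each list, and the 5 genes with the highest r to Adcy5 and to Gng7. Gene names are those of the scanner files. The comparison of probes along a transcript was added after the differences were seen. Alternatives were the background correction, scaling, authors' values, filter on dim probes, variance model, t-test, probe choice, replicate number as a block, slide, and each array left out.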

Additional observations from a re-analysis of the deposited data

Results flagged for a closer look

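At 2 of the 36 groups of 4 arrays examined (18 probes in each genotype), the highest or lowest array stood apart from the other 3 by more than the critical value of Dixon's test for the ratio of gap to range. Chance flags about 1 in 20 groups. At the 3'-most Adcy5 probe (A_55_P2106645), R6/2 replicate 1 had a level of 4.29, above the other 3 R6/2 arrays (gap over range 0.860), and without it the difference R6/2 minus WT was -1.05 (limma unadjusted p = 0.0033). At the Adcy1 probe (A_51_P196718), R6/2 replicate 4, the array of the second slide, had a level of -4.13, below the other 3 R6/2 arrays (gap over range 0.837). R6/2 replicate 4 was the highest or lowest of its group at 14 of the 17 tested probes and WT replicate 2 at 13. The other arrays were so at 4 to 11 probes, R6/2 replicate 1 at 11 and WT replicate 1 at 10. At any probe 2 of the 4 arrays of a group are the highest and lowest, and probes of 1 gene read the same RNA. The part of the slide or of the oligodendrocyte markers of WT replicate 2 in these values was not tested.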

How the results depend on the processing

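None of the 10 genes had a probe past the adjusted threshold under any alternative, and no gene of the 11 lists did. The median over the tested member probes stayed between -0.38 and -0.20. The count over all tested probes, 1 in the analysis reported, was 8 with normexp, 2 with quantile normalization, 7 with probes well above background on all 8 arrays, 8 with an intensity trend, 0 with the methods' t-test, 5 with the mean of a gene's probes, 0 with the first slide only, and between 0 and 3 with 1 array left out (3 without WT replicate 1). With the replicate number as a block it was 0, and Adcy5 had a limma unadjusted p = 0.0180. Deviations of same-numbered arrays correlated between -0.04 and 0.02, and only R6/2 replicate 1 correlated best with the WT array of its own number. Such a check cannot tell whether the numbers pair the arrays. The cause of these changes was not tested. Differences turned in sign for Gnas with the mean of its probes (-0.0367), for Adcy3 with the first slide only or without R6/2 replicate 4 (+0.0027 in both, which are the same arrays) and without WT replicate 4 (+0.14), and for Adcy9 without R6/2 replicate 1 (+0.26), WT replicate 1 (+0.19) or WT replicate 4 (+0.22). They also turned without WT replicate 2 for Adcy1 (-0.20) and for the gap between probes of Adcy5 (+0.0966) and Gnal (+0.0933). The Gnas probe A_52_P190394 turned in 6 of 17 fits, such as -0.19 without WT replicate 1, -0.0739 with quantile normalization and -0.0646 with normexp. Those 6 include the first slide only and the fit without R6/2 replicate 4 (-0.0553 in both, which are the same arrays). With 1 array left out the ranges were -0.39 to +0.14 for Adcy3, -0.60 to +0.26 for Adcy9, -0.20 to +1.03 for Adcy1, -0.86 to -0.24 for Adcy2 (-0.25 with normexp), and for the gaps -0.88 to +0.0966 for Adcy5 and -0.42 to +0.0933 for Gnal. The share of probes well above background, 9.42 percentage points higher in R6/2 with all arrays, differed by 12.6 points without WT replicate 2 (exact permutation p = 0.0286, the smallest possible) and by 3.94 points without WT replicate 1 (exact permutation p = 0.2). The 75th percentile of intensity differed by 30.04 units without R6/2 replicate 1 (exact permutation p = 0.0286), against 15.5 with all arrays. With 4 arrays a group, differences of the size seen at Adcy5, Gnal and Gng7 did not pass the adjusted test over all tested probes. The dim probes of Adcy1, Adcy2 and Adcy8 lie near or below background.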
